A study of Mus musculus with 2 samples.

Results

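The cells described here are squamous epithelial cells of the mouse cervix with many transcripts of the keratins Krt16 and Krt6b. They were chosen by their own counts of unique molecular identifiers (UMIs, 1 per captured RNA molecule). A cell had to hold at least 10 UMIs of Krt16 and Krt6b together, fewer than 3 of the luminal keratins Krt8 and Krt18, none of the neutrophil genes Csf3r, Cxcr2 and Retnlg, and at most 3 of 5 cell cycle genes (Mki67, Top2a, Birc5, Ube2c and Cenpf). They are called high cells below. The rule found 412 of them among 13981 barcodes that passed the filters, out of 16221 in all. Of the 412, 401 were in the control library and 11 in the progesterone library.

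Both libraries came from the cervix of females of the strain C57BL6/129 that were ovariectomised at an age of 7 to 8 weeks and then recovered for 2 weeks. Each library pooled 9 mice, so each group is 1 sample. Control mice stayed untreated over the 15 days of the experiment. Progesterone mice were first injected under the skin with estradiol (E2) in corn oil, 100 µg daily on 2 days. They were then given a 25 mg progesterone pellet, designed to release roughly 1 mg daily for 21 days. The estradiol, the injections, the pellet and the progesterone cannot be told apart in the difference between the libraries, and no vehicle-treated library was analysed here. Neither can a difference between the mice of the pools. With 1 library per group there is no test between groups, and the intervals given (at 95%) reflect counting error alone.

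Stratified squamous epithelium renews itself from a basal layer marked by Krt5, Krt14 and Krt15. Cells that leave it switch to suprabasal keratins such as Krt1 and Krt10, build desmosomes, and finally assemble a cornified envelope from loricrin, small proline-rich (Sprr) and late cornified envelope (Lce) proteins. Krt6a, Krt6b, Krt16 and Krt17 are called stress keratins, because skin makes little of them between the hair follicles at rest and much of them at wound edges and in inflamed or fast-renewing epithelium. Linings such as tongue and palate make them at rest. Fabp5 binds fatty acids in keratinocytes, Mt4 is the metallothionein of stratified squamous epithelium, and Sbsn (suprabasin) and Krtdap are secreted by differentiating keratinocytes.

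The keratins and the secreted genes lie in 3 clusters, in GRCm38 coordinates of GENCODE mouse release 21. Krt16 (chr11:100246091-100248902) and Krt17 (chr11:100256217-100261029) are neighbours of the type I keratin cluster, and Krt14 (chr11:100203162-100207548) is in the same cluster. Krt6b (chr15:101676023-101680287) and Krt6a (chr15:101689910-101694307) are neighbours of the type II cluster. Sbsn (chr7:30751471-30756134), Dmkn (chr7:30763756-30781063) and Krtdap (chr7:30787896-30791097) follow each other on the plus strand. Fabp5 (chr3:10012548-10016607) and Mt4 (chr8:94137197-94139031) lie elsewhere. The Krt6a and Krt6b transcripts were identical at 90.5% of aligned positions over their whole length and at 68.3% over their last 500 bases. How the counting assigned reads that fit both was not given in the sources used here, so their separate values are uncertain.

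The RefSeq promoter table held an entry for 6 of 11 genes looked up, namely Mt4, Sbsn, Krtdap, Krt14, Mt1 and Mt2. Mt4, Sbsn and Krtdap are shown because they are among the 7 genes that mark these cells, and all 6 were higher in the high cells of the control library. Each line gives the 250 bases before the RefSeq transcription start (GRCm38.p6), 5′ to 3′ on the strand of the gene. Capitals mark matches, on either strand, to the AP-1 site TGANTCA, the metal response core TGCNCNC, the TATA box TATAAA or the antioxidant response core TGACNNNGC.
Mt4 (chr8:94136954-94137203, plus strand): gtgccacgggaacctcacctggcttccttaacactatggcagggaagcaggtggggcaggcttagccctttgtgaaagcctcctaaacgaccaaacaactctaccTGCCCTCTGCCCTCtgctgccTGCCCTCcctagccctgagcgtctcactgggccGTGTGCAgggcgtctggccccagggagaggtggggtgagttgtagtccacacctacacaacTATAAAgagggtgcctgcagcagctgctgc
Sbsn (chr7:30751221-30751470, plus strand): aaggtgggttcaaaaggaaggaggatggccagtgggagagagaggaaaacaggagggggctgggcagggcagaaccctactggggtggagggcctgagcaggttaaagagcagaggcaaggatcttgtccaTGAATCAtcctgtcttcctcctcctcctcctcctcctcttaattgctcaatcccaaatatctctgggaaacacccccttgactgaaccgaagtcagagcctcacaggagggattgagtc
Krtdap (chr7:30787655-30787904, plus strand): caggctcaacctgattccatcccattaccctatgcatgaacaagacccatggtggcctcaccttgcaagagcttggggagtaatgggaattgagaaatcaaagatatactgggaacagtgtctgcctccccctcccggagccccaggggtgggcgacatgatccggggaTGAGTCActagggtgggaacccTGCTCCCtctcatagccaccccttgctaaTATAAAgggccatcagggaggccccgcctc
The Mt4 window held 4 metal response cores, whose first bases lay 145, 138, 124 and 91 bases before the start, and a TATA box at 30. The first pair of cores touch without overlap. The Sbsn window held 1 AP-1 site, at 119 bases before the start. The Krtdap window held an AP-1 site at 81, a metal response core at 59 and a TATA box at 30. Of the windows not shown, that of Krt14 held none of the 4 motifs, that of Mt1 held 1 metal response core, and that of Mt2 held 5, with an AP-1 and an antioxidant response match that overlap at 79. Of 32851 promoter windows in the RefSeq table, 6.75% held the AP-1 letters, 44.4% the metal response core, 12.4% the TATA box and 10.2% the antioxidant response core. A match describes the letters in the window and not the binding of a factor.

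High cells made up 8.42% of the control cells (401 of 4760, interval 7.65% to 9.25%) and 0.119% of the progesterone cells (11 of 9221, interval 0.0596% to 0.213%). The number of UMIs per cell differed little between the libraries, with medians of 3714 and 4215 over all cells that passed the filters. Some cells with at least 10 Krt16 and Krt6b UMIs failed the other terms of the rule. In the control library 555 cells had that many, of which 68 failed the luminal term, 47 the neutrophil term and 54 the cycling term. In the progesterone library 33 cells had that many, and 21 failed the luminal term. Just outside the limit, 112 control and 9 progesterone cells had 5 to 9 UMIs and passed the other terms, and just inside it 40 and 5 cells had 10 to 14. The libraries had 19 barcodes in common, 2 of them among the high cells. Scrublet, a doublet caller, marked 5 of the 401 control high cells and 0 of the 11.

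**Figure D1:**
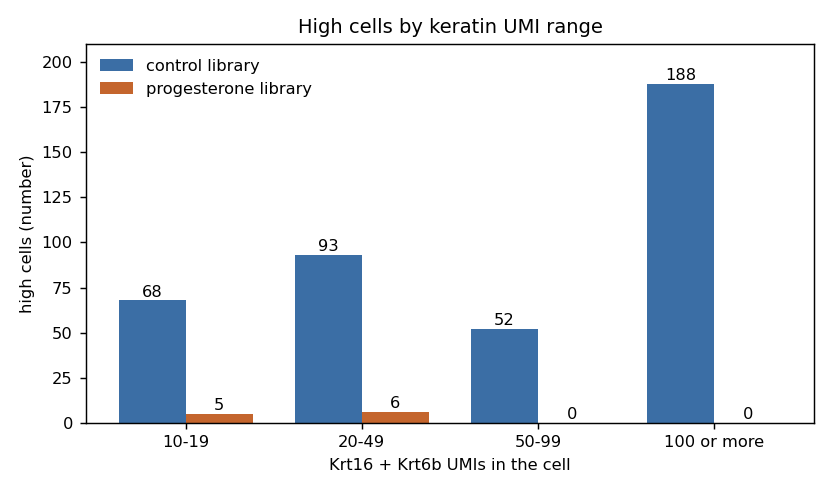
Number of high cells (vertical axis) by the Krt16 and Krt6b UMIs in the cell (horizontal axis), in the control and the progesterone library. The control library had 188 cells with at least 100 UMIs, and the progesterone library had none above 37.

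The keratin count that chose the cells ranged widely among them, as a description of the rule. Control high cells held 10 to 1733 Krt16 and Krt6b UMIs, with a median of 80. The 11 progesterone cells held 10 to 37, with a median of 20. Grouped by that count, the control high cells fell into 68 with 10 to 19, 93 with 20 to 49, 52 with 50 to 99 and 188 with at least 100. Median total UMIs in these ranges were 7506, 5788, 7731 and 10826, so the top range was also the most deeply read. The high cells were 8.42% of control cells and held 15.9% of the control UMIs. They held 83.3% of the library's Krt16 UMIs, 78.2% of its Krt6b, 58.0% of its Krt6a, 52.7% of its Krt17 and 43.0% of its Krt14. Of genes that the rule did not use, they held 86.6% of Mt4, 83.9% of Dsg1a, a desmosomal cadherin, 71.1% of Cst6, a protease inhibitor of the upper epidermis, 63.0% of Fabp5 and 59.5% of Sbsn.

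The mix of the keratin pair was not set by the rule and differed between the libraries. Krt16 made up 68.8% of the Krt16 and Krt6b UMIs in control high cells (interval 68.5% to 69.2%) and 37.4% in the progesterone ones (31.0% to 44.1%). Control high cells in the range of the progesterone cells, 10 to 37 UMIs, were at 60.7% (58.8% to 62.5%). Single cells varied far more than these intervals: the share ran from 0% to 100% over the 136 control cells of that range, with a median of 69.4%, and from 0% to 85.7% over the 11 progesterone cells, with a median of 34.6%. The cells of the pair of groups therefore overlapped. Within the control library the mix was steady above 50 UMIs, at 70.0% in the 50 to 99 range and 69.1% in the top range. Krt6b in turn made up 18.4%, 24%, 27.1% and 44.4% of the Krt6a and Krt6b UMIs from the lowest to the top range. The ranges are cuts in a count that includes Krt6b and not Krt6a, so a rise in this share can follow from the cuts.

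The 7 markers of the label were read in the high cells and in comparison cells. Comparison cells had at least 10 UMIs of the suprabasal genes Krt10 and Krtdap and fewer than 10 of Krt16 and Krt6b, under the same other terms. There were 114 of them in the control library and 81 in the progesterone library. UMIs of each gene were summed over the cells of a class and scaled to 1000000 UMIs of that class (CPM). A gene was called higher or lower when its ratio was at least 2-fold and the interval bound nearest to no difference was at least 1.5-fold, a rule of size and not a test. All 7 markers were called higher in the control high cells, 3 of them (Krt16, Krt6b and Krtdap) genes of the rules. Krt6a stood at 10137 against 1954 CPM, a ratio of 5.19 (4.94 to 5.45). Fabp5 stood at 20030 against 3597 CPM, a ratio of 5.57 (5.37 to 5.77). Sbsn stood at 1278 against 183 CPM, a ratio of 6.98 (5.96 to 8.22), and Mt4 at 360 against 2.29 CPM, a ratio of 157 (43.4 to 1298). In the progesterone library 3 of the 6 markers with enough UMIs were called higher, namely Krt16, Krt6b and Krt6a, and Mt4 had no UMI in the high cells. Higher Krt16 and Krt6b are fixed by the rules. Outside the genes of the rules, 4 of 4 markers were called in the control library and 1 of 3, Krt6a, in the progesterone library. The markers were chosen with earlier results of these data known, so these calls describe the label and cannot check it.

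Over all 8436 genes with at least 20 UMIs in the 2 control classes, 190 (2.25%) were called higher in the high cells and 286 (3.39%) lower. The median gene stood at a log2 ratio of -0.26, so a ratio of 1 is slightly above the middle of the genes. The rule used Krt16 and Krt6b counts of these same cells, and the comparison describes the classes. Median UMIs per cell were 8424 and 7430, and median mitochondrial shares 4.64% and 5.32%. The number called lower depended on the part of the range: 548 were called lower with the 188 top cells alone and 39 with the 161 cells of 10 to 49 UMIs.

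Stress keratins outside the rule were both called higher. Krt17, partner of Krt6 in filaments, stood at 4898 against 776 CPM, a ratio of 6.31 (5.84 to 6.82), beside the Krt6a value above. Among 13 basal keratin and adhesion genes Krt14 was called higher and the cadherin Cdh3 lower, with 14 UMIs in each class, and the median log2 ratio was -0.45. Krt14 stood at 48525 against 15493 CPM (3.13, 3.08 to 3.19). Its basal partner Krt5 was at 7070 against 4988 CPM (1.42, 1.37 to 1.46), short of the limit. Krt15, a keratin of resting basal cells, was at 632 against 1161 CPM (0.545, 0.505 to 0.587). The basal keratins therefore did not move together.

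Suprabasal genes outside the rules were called higher in 7 of 14 cases and lower in none. Lypd3, a surface protein of suprabasal cells, was at 701 against 192 CPM (3.64, 3.12 to 4.29), and Dmkn, a secreted neighbour of Sbsn, at 2662 against 1163 CPM (2.29, 2.14 to 2.44). Krt1 was at 202 against 9.16 CPM (22.1, 11.1 to 51.4), carried by 66 of 401 cells, of which 1 held 23.3% of its UMIs. Desmosome genes were called higher in 5 of 13 cases and lower in none, with a median log2 ratio of 0.90. Dsg1a was at 133 against 1.14 CPM (117, 20.8 to 4615) and Dsg1b at 164 against 11.4 CPM (14.4, 7.75 to 30.1), a pair of near copies whose reads the counting may have split. The desmocollin Dsc2 was at 520 against 133 CPM (3.91, 3.24 to 4.76), the plaque proteins Pkp1 at 609 against 190 CPM (3.20, 2.73 to 3.78) and Jup at 510 against 222 CPM (2.30, 1.98 to 2.68). Gjb2, a gap junction channel, was at 258 against 60.7 CPM (4.25, 3.22 to 5.72).

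**Figure D2:**
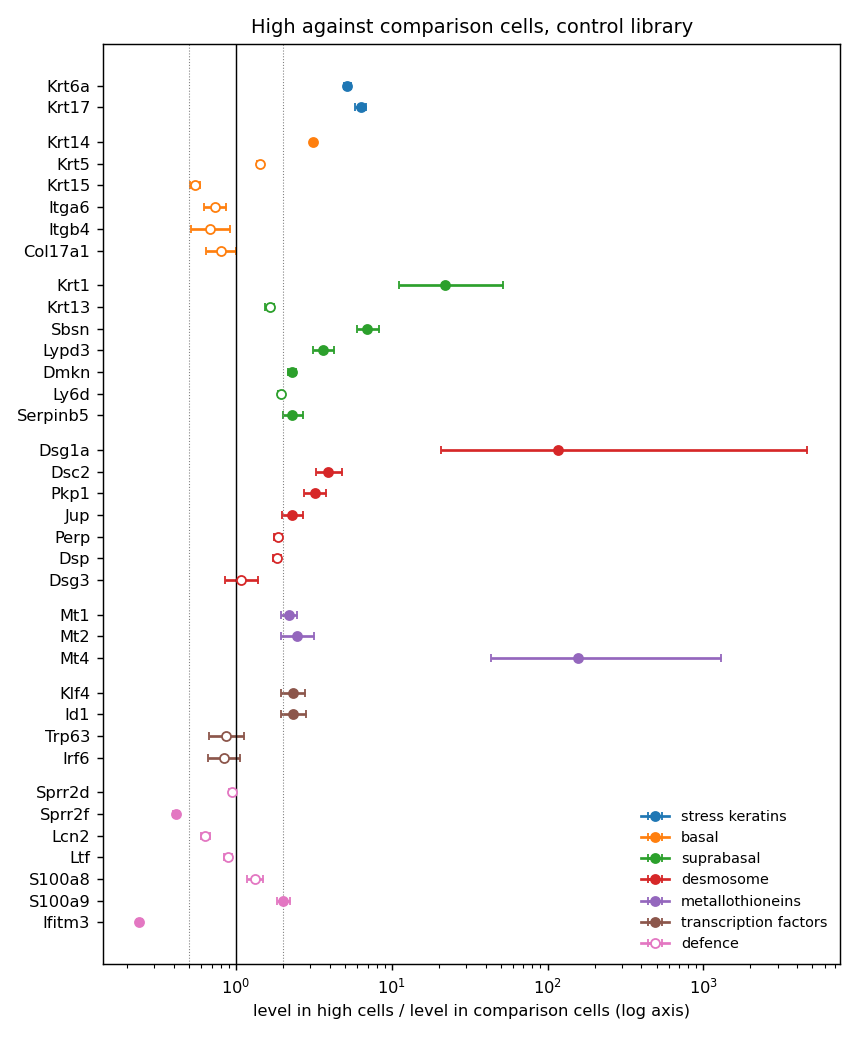
Ratio of the CPM in control high cells to that in control comparison cells (horizontal log axis) for genes of 7 groups, with 95% counting intervals. Filled points met the rule for a call and open points did not. Dotted lines mark 2-fold either way. Krt6a, Krt17, Krt14, the desmosomal Dsg1a and Dsc2 and all of Mt1, Mt2 and Mt4 are filled on the right, while Ifitm3 and Sprr2f are filled on the left.

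The metallothioneins, small proteins that bind zinc and copper, were called higher in 3 of 4 tested. Mt1 was at 768 against 353 CPM (2.18, 1.93 to 2.46) and Mt2 at 209 against 84.7 CPM (2.47, 1.94 to 3.18), beside the 157-fold ratio of Mt4. Protease inhibitors of the serpin, stefin and Spink families were called higher in 7 of 13 and lower in 1. Cst6 was at 275 against 14.9 CPM (18.5, 10.8 to 34.8), and Spink5, the inhibitor of the kallikreins that shed the surface layer, at 3493 against 994 CPM (3.51, 3.28 to 3.77). Serpinb11 was the one called lower, at 104 against 283 CPM. Of 18 lipid genes Fabp5, Hmgcs1 and Sqle were called higher, the last pair enzymes of cholesterol synthesis at ratios of 2.42 (1.77 to 3.39) and 2.49 (1.70 to 3.75).

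Among the 25 tested transcription factors of squamous cells none was called lower, and the median log2 ratio was -0.16. Klf4, which acts in late keratinocyte differentiation, was called higher, at 396 against 171 CPM (2.32, 1.96 to 2.77), and so was Id1, at 359 against 155 CPM (2.32, 1.94 to 2.80). Of 20 cell cycle genes outside the rule, 2 were called higher, Sfn (3.16, 3.01 to 3.31) and the inhibitor Cdkn1a (2.56, 2.10 to 3.16), which both hold cells back from division. The 3 called lower, Mcm7, Stmn1 and Hmgb2, are made by dividing cells, and their ratios were 0.340, 0.350 and 0.441. The rule itself removes cells with many cycle transcripts from both classes. Pgr, the progesterone receptor, was at 79.1 against 24 CPM (3.29, 2.11 to 5.40), the only gene called of the 5 tested in the steroid list.

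Lists tied to injury and defence, the Sprr and S100 families apart, were short and each held few calls in this comparison. Of 10 Sprr genes 5 were called higher and 2 lower, with Sprr2b at 65.4% of its UMIs in 1 cell, and of 11 S100 genes 3 were higher and 1 lower. The copies within the Sprr2 family, as within the Lce3 genes, may share reads. None of 11 cytokine and chemokine genes was called higher and 1, Il33, was lower. None of 8 antimicrobial genes and none of 20 glycolysis and hypoxia genes was called either way. Of 8 wound edge genes 1 was called, of 13 immediate early genes 2, of 11 heat shock genes 1 (Hspb1, ratio 2.31, 2.20 to 2.43), and of 18 oxidative stress genes 1 higher (Gsta4, 2.20, 2.05 to 2.37) and 2 lower. The EGF receptor ligand Hbegf was at 78.2 against 20.6 CPM (3.79, 2.35 to 6.50), and 1 cell held 14.6% of its UMIs. Apart from the Sprr and S100 genes, none of these lists had more than 2 genes called higher. Where 1 or 2 were called, their share of so short a list was above the 2.25% of all genes. Whether such counts differ from that share was not tested.

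Among genes ranked by the bound of their interval, the 15 highest were Lce3a, Lce3f, Lce3b, Crct1, Mt4, Hbb-bs, Lce3c, Dsg1a, Lce3e, AA467197, Cnfn, Hba-a1, Hbb-bt, Lce3d and Krt1. For 9 of these a single cell held at least 50% of the UMIs. One cell held 4004 of the 4037 Lce3 UMIs of the control high cells, or 24.3% of its own 16444 UMIs. It also held 687 UMIs of Crct1, 619 of Cnfn and 124 of Asprv1, all genes of the cornified layer, but only 23 of Krt14 and 1 of Fabp5. Another cell held 4217 of 4288 globin UMIs, which were 50.4% of its 8362 UMIs, along with 201 of Krt16 and Krt6b. Crct1 had 48.9% of its UMIs in 1 cell and Cnfn 36.1%. Of 13 cornified envelope genes 10 were called higher, at a median log2 ratio of 4.53, which was 1.85 when each gene was taken without its top cell. Without the Lce3 cell and the globin cell, 169 genes were called higher and 279 lower.

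Genes detected in at least 10% of the high cells give the broader picture, a list chosen after the values were seen. Besides Mt4, Dsg1a, Krt1, Cst6, Dsg1b, Sbsn, Krt17, Fabp5, Krt6a and Spink5, and Cnfn and Psca with many UMIs in few cells, it held Fam25c (11.1, 6.76 to 19.5), Atp6v0a4 (9.63, 4.35 to 26.5), Calm4, a calmodulin-like protein (8.38, 4.94 to 15.5), Pinlyp (7.93, 5.03 to 13.3), Rdh12, a retinal reductase (6.91, 3.58 to 15.3), Slurp1, a secreted peptide of keratinocytes (6.6, 3.95 to 11.9), Glrx, which reduces glutathionylated proteins (5.74, 3.49 to 10.2), and the tubulin Tuba4a (3.72, 3.30 to 4.20). Mt4 had a UMI in 144 of 401 high cells and 2 of 114 comparison cells. After thinning each cell to 2000 UMIs, which left out 44 shallower high cells, Mt4 was seen in 23.0% of high cells (18.7% to 27.7%), in 0.877% of comparison cells, and in 0 of the 68 cells of that depth among 305 with at least 3 UMIs of the neutrophil genes (237 were too shallow), which allows a share of up to 4.41%. Dsg1a was seen in 21.6% of the thinned high cells (17.4% to 26.2%) in 0 of 114 comparison cells, which allows a share of up to 2.63%, and in 0 of the same 68 neutrophil cells. Taken over all thinned high cells, both shares are above the background that the neutrophil cells give for RNA from other cells. This does not hold for Mt4 in the high cells with 10 to 49 Krt16 and Krt6b UMIs. Their thinned Mt4 share, given below, is under the share that the neutrophil cells allow. For Dsg1a the thinned share of these cells is not given here. Before thinning it had 16 UMIs in 13 of them, fewer than the 37 UMIs of Mt4 in 21, so Dsg1a is not shown to be above the background there. Before thinning, the median over all 305 neutrophil cells was 656 UMIs, against 8424 over all 401 high cells.

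**Figure D3:**
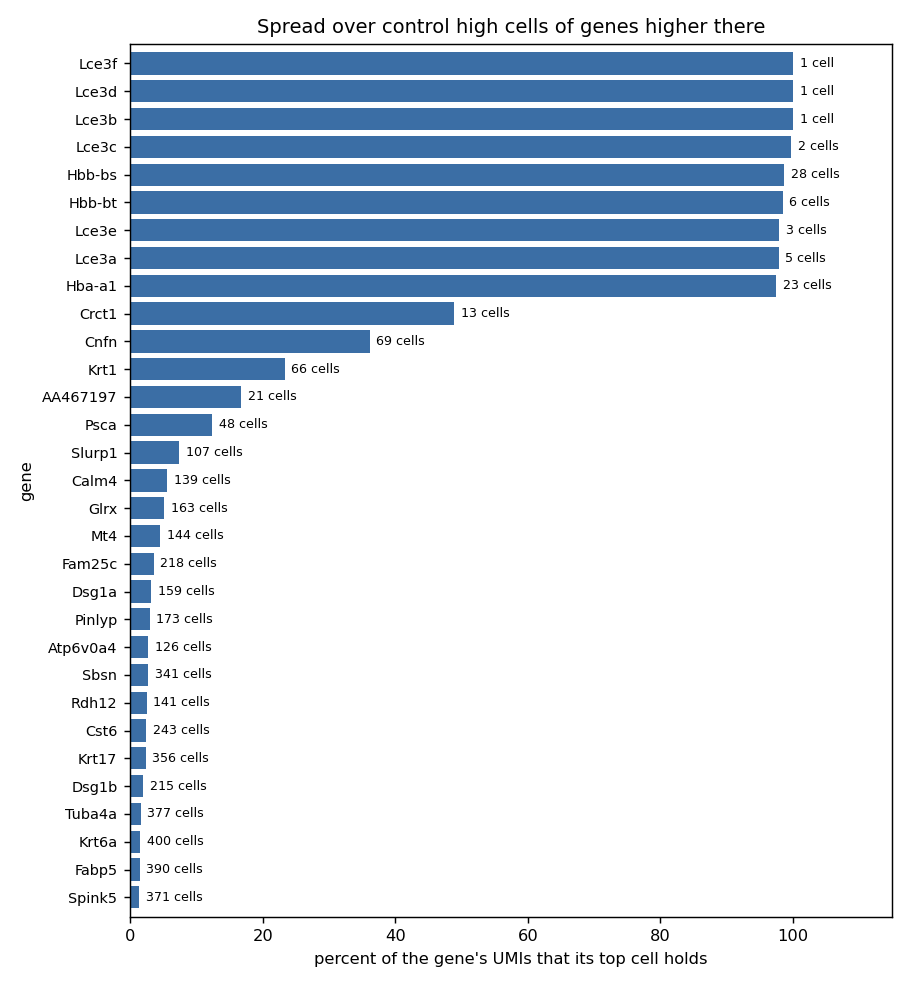
Percent of a gene's UMIs in control high cells that its top cell holds (horizontal axis, from 0), with the number of high cells that had a UMI beside each bar. Genes are those called higher by the ranking rule or detected in at least 10% of the high cells. The Lce3 and globin bars reach 97.5% or more, while Krt6a UMIs were found in 400 cells, Fabp5 in 390, Krt17 in 356 and Sbsn in 341.

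The 15 genes lowest in the high cells included Ifitm1, Ifitm2 and Ifitm3, membrane proteins that block virus entry and are also made without interferon. Ifitm1 was at 292 against 2085 CPM, 7.15-fold lower (6.61 to 7.74), Ifitm3 at 1251 against 5210 CPM, 4.16-fold lower (3.99 to 4.34), and Ifitm2 3.17-fold lower (2.95 to 3.40). The remaining 12 were Rpl29, Adam28, Sox4, Cyp2f2, Tmem176b, Gda, Runx1, Tmem176a, Serpina9, Arid5b, Wfdc18 and Sprr2f, between 2.42-fold and 5.30-fold lower. Sox4 and Runx1 are transcription factors of immature epithelial cells, at 4.70-fold (3.8 to 5.81) and 3.86-fold (3.06 to 4.88) lower. Il33, an alarmin cytokine held in epithelial nuclei, was 2.45-fold lower (2.12 to 2.83), and the tight junction protein Cldn7 was 2.42-fold lower (2.07 to 2.83). Wfdc18 and Sprr2f were not lower in the 161 control high cells with 10 to 49 UMIs.

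The high cells of the control library were not uniform along the keratin count. Comparing the 188 cells with at least 100 Krt16 and Krt6b UMIs with the 161 cells with 10 to 49, 108 of 7409 tested genes (1.46%) were called higher and 455 (6.14%) lower. The ranges come from the genes of the rule, and the other genes follow as a description of these cells. Fabp5 was at 3597 CPM in comparison cells and at 3374, 5943, 12067 and 29050 CPM from the lowest to the top range. Krt14 was at 15493 and then 18071, 33539, 46556 and 59991 CPM, and Krt6a at 1954 and then 3357, 6211, 8408 and 13066 CPM. Krt17 was at 776 and then 2302, 2419, 3533 and 6401 CPM. Fabp5 and Krt14 were therefore near the comparison cells in the lowest range and climbed with the keratin count, whereas Krt17 was already higher in the lowest range.

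The step was also visible cell by cell. Of the 188 top cells 156 had at least 100 Fabp5 UMIs, against 1 of 68 in the lowest range and 2 of 114 comparison cells. All 188 had at least 100 Krt14 UMIs, against 29 of 68 and 55 of 114. Mt4 was at 564 CPM in the top cells against 37.0 in the 10 to 49 range, 15.3-fold (11 to 21.8), Dsg1a 12.9-fold (7.84 to 22.8), Krt1 10.2-fold (7.11 to 15.1) and Sbsn 4.39-fold higher (3.97 to 4.87). Desmosome genes were called higher in 6 of 13 and lower in none, with a median log2 ratio of 1.00. After thinning to 2000 UMIs Mt4 was seen in 38.8% of top cells (31.8% to 46.2%) and 3.88% of the cells with 10 to 49, a gap that equal depth did not remove. Pgr was at 99.5 CPM in the top cells and 29.0 in the 10 to 49 range.

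**Figure D4:**
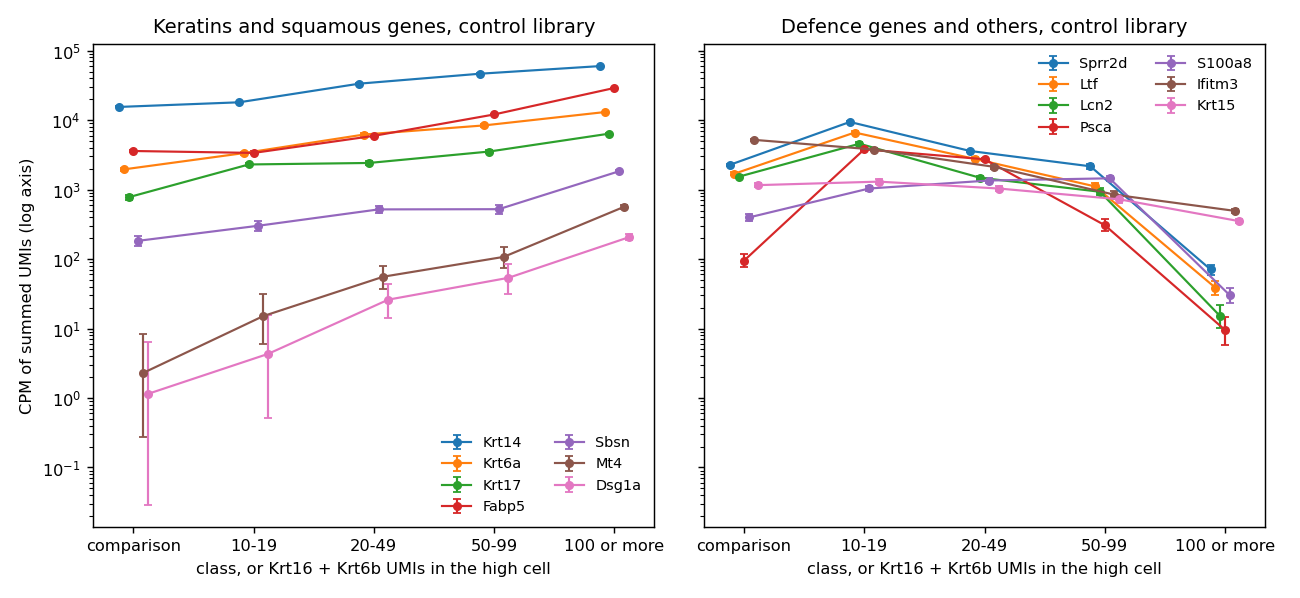
CPM of summed UMIs (vertical log axis) in control comparison cells and in 4 ranges of Krt16 and Krt6b UMIs of the control high cells (horizontal axis), with exact Poisson intervals. Left, keratins and squamous genes, which are highest in the top range. Right, Sprr2d, Ltf, Lcn2 and Psca are highest in the lowest range. They are 88.9-fold (Sprr2d) to 339-fold (Psca) lower in the top range than over the 10 to 49 range. S100a8 is lowest in the top range. Its 50 to 99 value rests largely on 1 cell, which held 1436 of the 1491 UMIs of S100a8 and S100a9 there. The 50 to 99 values of Sprr2d and Psca also rest on single cells.

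The lower ranges held another set of transcripts. Sprr2d, a small proline-rich envelope precursor, was at 9420, 3599, 2165 and 70.8 CPM from the lowest to the top range and 2268 CPM in comparison cells. The antimicrobial iron binder Ltf was at 6639, 2767, 1111 and 38.7 CPM (1694 in comparison cells), and Lcn2, which captures bacterial siderophores, at 4583, 1485, 932 and 15.1 CPM (1541 in comparison cells). Psca, a surface antigen of mucosal epithelium, was at 3806, 2737, 308 and 9.54 CPM and only 95 CPM in comparison cells. The 50 to 99 values of Sprr2d and Psca rest on single cells. There 1 cell held 721 of 725 Sprr2d UMIs, and 1 cell held 101 of 103 Psca UMIs. The neutrophil attractant Cxcl5 was at 1012 CPM in the 10 to 49 range and 3.01 CPM in the top cells. Of 10 Sprr genes 9 were called lower in the top cells, and so were 6 of 7 antimicrobial and 8 of 10 cytokine and chemokine genes. Of 12 cornified envelope genes 10 were called lower and 1 higher. Their median log2 ratio was -7.90, and -4.45 when each gene was taken without its top cell. In the 20 to 49 range the Lce3 cell named above held 4004 of the 4011 Lce3 UMIs, so the Lce3 calls rest on 1 cell.

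The set of transcripts higher in the lower ranges came from part of their cells. At least 10 Sprr2d UMIs were held by 24 of 68 cells in the lowest range, 9 of 93 in the next, 1 of 52 and 5 of 188, against 45 of 114 comparison cells. The Psca UMIs of the 10 to 49 range came from 32 of 161 cells, and the Sprr2d UMIs from 58. S100a8, a calcium-binding alarmin, was at 1038, 1353, 1455 and 30.1 CPM, but in the 50 to 99 range 1 cell held 95% of the UMIs of the neutrophil marker list. Basal Krt15 was at 1303, 1036, 726 and 351 CPM, and Ifitm3 at 3778, 2127, 845 and 495 CPM. The ranges are cuts in a count, with 40 cells at 10 to 14 UMIs, and not separate cell types.

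Markers of other cells moved with these ranges. The summed level of the luminal marker list without the rule genes (13 genes, all with a UMI somewhere in the high cells) was 5599, 3761, 684 and 328 CPM from the lowest to the top range, against 634 CPM in comparison cells. In the 50 to 99 range 1 cell held 65.9% of the list's UMIs. Most of the list's level in the lower ranges was Psca, Krt7 and Krt19. In the lowest range 11 of the 13 genes had UMIs, Clca1 and Tff1 among them, and only the secretory genes Muc5b and Agr2 had none. The neutrophil list without the rule genes was at 3482, 3547, 4516 and 132 CPM, against 954 CPM, and consisted mainly of S100a8 and S100a9, which keratinocytes also make. Of its 9 genes, Mmp8, Cd177 and Ly6g were at 0 in all ranges, and 6 had UMIs in the high cells, with 12 of Hdc. Cd177 had only 52 UMIs over all control cells that passed the filters, against 859 of Hdc. Macrophage genes were at 20.9 to 65.1 CPM over the ranges, fibroblast genes at no more than 2.99 CPM and endothelial genes at no more than 5.58 CPM. Erythrocyte genes reached 2137 CPM in the top range, 99.2% of it in the globin cell named above. The part of luminal or neutrophil RNA in the lower-range pattern was not tested.

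Of the 401 control high cells, 250 also had at least 10 Krt10 and Krtdap UMIs, as did 8 of the 11 progesterone cells. Krt10 itself was at 709 CPM in the high cells and 1226 in the comparison cells, which were chosen for it, and Krtdap at 2281 and 1098. Krtdap climbed over the ranges from 667 to 1221, 1822 and 3020 CPM, while Krt10 stayed between 462 and 811. The cells below 10 UMIs of the pair had a median of 5488 UMIs against 9893 in the others, so this split moves with depth.

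The 11 progesterone high cells each held 10 to 37 Krt16 and Krt6b UMIs and 4428 to 14992 UMIs in all. Their median mitochondrial share was 9.88%, against 4.64% in the control high cells and 7.48% in the progesterone comparison cells. Against the 81 comparison cells of their own library, 43 of 3835 tested genes (1.12%) were called higher and 6 (0.156%) lower. Krt6a was at 5115 against 1899 CPM (2.69-fold), Krt17 3.61-fold, Krt13 2.86-fold, Spink5 5.04-fold and Dsc2 2.59-fold higher. Krt6a UMIs per cell ran from 18 to 71, with every one of the 11 cells positive. Krt14 UMIs ran from 38 to 574. Fabp5 ran from 0 to 16 UMIs per cell, and its level equalled that of the comparison cells, at 781 and 779 CPM. In the control library the same comparison gave the 5.57-fold difference above.

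Progesterone and control high cells were set side by side, again with no test. Of 7783 tested genes 266 (3.42%) were called higher in the progesterone cells and 110 (1.41%) lower, around a median log2 ratio of 0.40. Since the control cells reached far higher keratin counts, the 136 control cells with 10 to 37 UMIs were also used, a choice made after the data were seen. Against those, 105 of 4523 genes (2.32%) were called higher and 112 (2.48%) lower, around a median of 0.06. The estimates below rest on 11 cells, and 1 cell weighs heavily: without each gene's top cell in each class, 63 genes were called higher and 194 lower, where the removed cell is 1 of 11 on one side and 1 of 401 on the other.

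Krt14, Krt6a and Krt17 levels of the libraries lay closer together in cells matched for the count. The difference in Krt13 changed little, and Krt10 lay further apart. Krt14 was at 22450 CPM in the progesterone cells, 48525 in all control high cells and 24166 in the matched ones, a matched ratio of 0.929 (0.888 to 0.972). Krt6a was at 5115, 10137 and 4577 CPM, a matched ratio of 1.12 (1.01 to 1.23), and Krt5 gave a matched ratio of 1.25 (1.15 to 1.36). Krt17 was at 1327, 4898 and 2497 CPM, a matched ratio of 0.531 (0.440 to 0.637), short of the limit. Krt13, the suprabasal keratin of internal squamous linings, was at 5993, 2016 and 2067 CPM, a matched ratio of 2.90 (2.63 to 3.19), and Krt10 at 2461, 709 and 566 CPM, a matched ratio of 4.35 (3.70 to 5.11). Progesterone comparison cells were 1.71-fold (1.58 to 1.86) and 1.59-fold (1.46 to 1.73) above control comparison cells in the same genes.

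The defence genes of the lower ranges had few or no UMIs in the progesterone high cells. Sprr2d and Lcn2 had no UMI among their 93450, against 7166 and 3264 UMIs in control high cells, which makes them at least 67.1-fold and 30.6-fold lower in CPM, or at least 234-fold and 107-fold lower than in the matched cells. S100a8 had none either, at least 16.4-fold lower than in all control high cells. Ltf was 28.2-fold lower (12.1 to 86.8), S100a9 47.1-fold (13 to 389) and S100a6 32.8-fold (14 to 101). In comparison cells, where 117 of 6228 genes (1.88%) were called higher with progesterone and 206 (3.31%) lower, the direction was the same: Sprr2d had 1981 UMIs in control and 0 in progesterone ones, Ltf was 89.2-fold lower (50.9 to 173) and S100a6 6.45-fold lower (5.31 to 7.90) with progesterone. The lower values of these transcripts were therefore found in both squamous classes. Markers of other cells moved with them. The luminal list stood at 503 CPM in the progesterone high cells, against 5599 and 3761 CPM in the control ranges of 10 to 19 and 20 to 49 UMIs, with Krt19, Muc1, Muc4, Cldn10 and Spdef at 0. Against the matched cells 5 of its 7 tested genes outside the rule were called lower and none higher, at a median log2 ratio of -3.43. The neutrophil list stood at 85.6 CPM against 3482 and 3547 CPM, with 2 of 3 tested genes called lower against the matched cells and Mmp8, Cd177 and Ly6g at 0 in the high cells of both libraries. In comparison cells the luminal list was at 634 CPM in control and 473 CPM with progesterone, and the neutrophil list at 954 and 209 CPM. The part of other cells' RNA in the difference was not tested.

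Fabp5 was at 781 CPM in progesterone high cells, 25.6-fold lower than in all control high cells (20.4 to 32.7) and 5.73-fold lower than in the matched ones (4.55 to 7.33). It was 4.62-fold lower (4.20 to 5.09) in progesterone than in control comparison cells. Mt4 had no UMI, at least 11.2-fold lower than in all control high cells, but the 30 UMIs of the matched cells were too few for a call. Mt1 was lower than in matched cells by 3.16-fold (1.95 to 5.47) and Mt2 by 7.85-fold (2.13 to 65.4). Glycolysis and hypoxia genes were called lower in 8 of 20 in all high cells and 9 of 18 in matched ones, none higher, with Pkm 3.02-fold (2.01 to 4.75) and Ldha 2.59-fold lower (1.75 to 4.00) in the matched comparison. In comparison cells 13 of 18 genes of the list were called lower, with Ldha 3.27-fold lower (2.74 to 3.93).

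On the other side, Xist, the RNA that coats the inactive X chromosome, was at 1723 against 360 CPM in all control high cells (4.78, 4.03 to 5.64), and Dapl1, a gene of early epithelial differentiation, at 1177 against 435 CPM (2.71, 2.21 to 3.29). Both were also higher in progesterone than in control comparison cells, at 2.41-fold (2.17 to 2.68) and 2.60-fold (2.25 to 3.01). The other 7 genes ranked highest by their bound, besides Krt13, were Malat1, Rps24, Ahnak, Fxyd3, Rps18, Dsp and Rpl9, at ratios of 1.47 to 1.89, and were not called. Pgr gave a matched ratio of 6.84 (3.15 to 14.6), from 14 UMIs in 5 of the 11 cells, and Dsc2 one of 3.39 (2.5 to 4.55). Of the 110 genes called lower, the rule also named Cnfn, at least 16-fold, Crct1, at least 13.2-fold, and Gm10036, at least 13.7-fold lower, and the first pair rest largely on a few control cells.

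**Figure D5:**
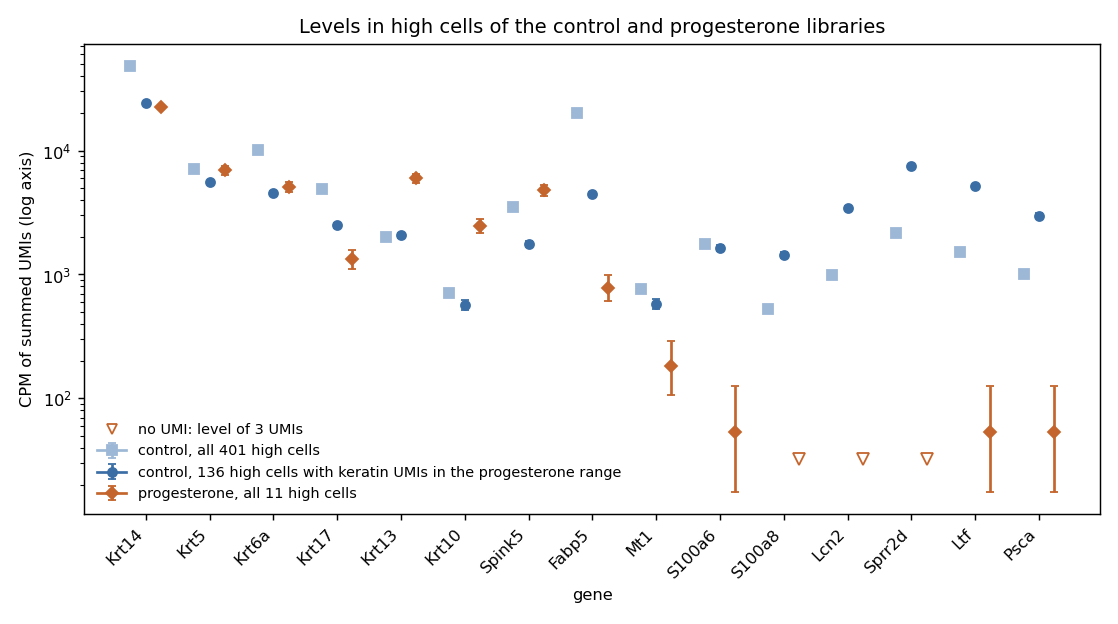
CPM of summed UMIs (vertical log axis) in all control high cells, in the control high cells whose keratin count lies in the range of the progesterone cells, and in the 11 progesterone high cells, for 15 genes (horizontal axis), with exact Poisson intervals. Open triangles mark genes without a UMI, drawn at the level of 3 UMIs. Krt14 and Krt6a of the progesterone cells lie near the matched control cells, Krt13 and Krt10 above them and Fabp5 and the defence genes below.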

How the data were processed

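Gene expression was counted by 10x Genomics 3′ single-cell sequencing (kit v3.1) in cervix cells released with a cold protease, per the labels' protocols. The authors deposited filtered matrices of whole-number UMI counts per gene and barcode, made with Cell Ranger 3.0.2 on build mm10 per the submitters' processing notes. The annotation and how reads shared by near copies were counted are not given in the sources used here. The matrices list 31053 identifiers, of which 30934 are in GENCODE mouse release 21, the source of positions. Barcodes passed with 200 genes or more and a mitochondrial share of 20% or less. The control library held 21658684 UMIs in 5368 barcodes and the progesterone library 44811069 in 10853.

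The members, gene lists and rules were chosen with earlier results of these data known. The high cells were defined by raw counts and so depend on depth. Within each library the UMIs of a class were added up. Intervals at 95% are exact Poisson for levels, Clopper-Pearson for shares and conditional binomial for ratios. PCR and cell-to-cell spread are not in them. Genes with at least 20 UMIs over both classes were tested against the size rule, and log2 ratios had 0.5 counts added. A fold against no UMI used a floor of 3 counts per class, and the share that a count of 0 allows was taken as 3 cells of the total.

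Named genes were the 15 highest and 15 lowest in control high cells, and the 10 each way between the libraries, by the interval bound nearest to no difference. They needed at least 100 UMIs and 50 CPM in the class where they were higher, and mitochondrial and rule genes were left out. Genes of the lists could be named within their list. One result of the transcription factor list is not reported here. Doublets were marked by the highest Scrublet scores in scanpy 1.11.5, at an assumed rate, and kept in the main values. Promoter windows came from RefSeq, where 6 of 11 genes asked for had an entry. Python 3.11.15, numpy 2.4.6, scipy 1.17.1 and pandas 2.3.3 were used, and the ratio intervals were tested on simulated data. Alternatives covered the limit of the rule, depth, scaling, doublets and low counts, and 5 were added after seeing the data: 2 cells left out, top cells left out, and parts of the keratin range.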

Additional observations from a re-analysis of the deposited data

Results flagged for a closer look

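Of 18 genes called in both libraries between high and comparison cells, 10 were called in the same direction and 8 in opposite directions. The difference between the libraries was not tested, and the progesterone values rest on 11 cells. Log2 ratios of high over comparison cells are given for the control and then the progesterone library.

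5 genes were lower in the control high cells and higher in the progesterone ones. They are the small proline-rich gene Sprr2f at -1.27 and 2.87, Wfdc18 at -1.47 and 2.25, Lgi2 at -2.67 and 2.39, Etl4 at -1.29 and 2.11, and Oit1 at -1.22 and 1.62. For Sprr2f this came from 27 against 25 UMIs in the progesterone classes, and the control ratio was not below 1 in cells with 10 to 49 Krt16 and Krt6b UMIs. 3 genes went the other way. Fth1, the ferritin heavy chain, stood at 1.53 and -1.57. The globins Hba-a1 at 4.8 and -2.73 and Hbb-bs at 5.66 and -2.25 have 97.5% and 98.7% of their control UMIs in 1 high cell.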

How the results depend on the processing

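The share of control high cells was 8.42% and became 10.8% with a limit of 5 UMIs, 7.00% with 20, 9.62% with a floor of 500 genes and a ceiling of 10% mitochondrial UMIs, 17.3% among cells of at least 5000 UMIs and 16.4% after thinning to 5000. The progesterone share of 0.119% became 0.217% with 5 UMIs, 0.0651% with 20, 0.274% with at least 5000 UMIs and 0.247% after thinning. The control share stayed above the progesterone share in each of these.

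In the control library (190 higher, 286 lower), thinning gave 92 and 168, at least 100 UMIs per gene gave 110 lower, the top range 548 lower and the 10 to 49 range 39 lower. In the progesterone library (43 and 6), thinning gave 23 and 2, at least 100 UMIs per gene 15 and 2, no low-count filter 79 higher, a limit of 5 UMIs 12 lower, totals without mitochondrial, ribosomal and the top 20 genes 10 lower, and leaving out each gene's top cell 19 and 20. Between libraries (266 and 110), a limit of 20 UMIs gave 136 and 59, 0.2% of UMIs 158 higher, the stricter cell filter 123 higher, thinning 109 and 60, at least 100 UMIs per gene 114 higher, the matched range 105 higher, and leaving out top cells 63 and 194. Ratios of mean CPM over cells, by fold alone with no bound, gave 399 and 1049, 377 and 314, and 2288 and 993. Thinning and count filters leave fewer genes or UMIs to call, by construction. The cause of the other shifts was not tested.

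Totals without mitochondrial, ribosomal and top 20 genes moved the median of all genes between the libraries from 0.40 to 0.55, and the share of calls that were higher from 70.7% to 80.2%. No low-count filter moved that median to 1.07, at least 100 UMIs per gene moved it to 0.09 and no top cell to -0.38. In the control library the share of higher calls went from 39.9% to 24.6% in the top range and 79.6% in the 10 to 49 range.

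Values that reversed, as log2 ratios, were Hbb-bs at -0.43 without its top cell, Hbb-bs at -0.54 and Hba-a1 at -0.45 without the Lce3 and globin cells, and Wfdc18 and Sprr2f at 0.16 each in the 10 to 49 range. List medians reversed for skin appendage genes at -0.045 (0.2% of UMIs) and -0.34 (no filter), Langerhans and dendritic genes at 0.95 (no doublets), 0.34 (mean CPM) and 0.11 (10 to 49 range), and Sprr genes at -0.16 (thinned) and -3.28 (top range). Between the libraries they reversed for EGF genes at -0.17 (thinned), and without a filter for cytokines at 0.11, antimicrobial genes at 0.15 and neutrophil genes at 0.48. Of 898 list medians, these included, 787 moved by no more than a fixed 1.5-fold limit, as did 564 of 727 named gene values. The named gene total includes 50 values each from no low-count filter and from at least 100 UMIs per gene. Those filters choose genes and cannot change a ratio. No named gene value of the control library stayed within the limit in either part of the keratin range. In the 10 to 49 range 26 moved and 2 reversed, and in the top range 22 moved. That limit is a rule of size and not a measured spread. No paired analysis was possible because each group is 1 library. Depth limits the 11 progesterone cells, whose 93450 UMIs cannot show genes near 30 CPM.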
